A study of Mus musculus with 36 samples.

Results

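Mouse lung pericyte-like cells that had been exposed for 24 h to injured BALF were compared with cells of the same kind exposed for 24 h to uninjured BALF. BALF is bronchoalveolar lavage fluid, the saline with which the airspaces of a lung are rinsed and which carries out their soluble proteins and lipids. The comparison took 12 of the 36 messenger RNA libraries of the series, chosen by their treatment and time labels: 6 libraries of injured BALF (3 female, 3 male) and 6 of uninjured BALF (3 female, 3 male). Cells of both groups came from digested mouse lungs, were grown to confluence, depleted of cells bearing CD31 (endothelium), CD45 (leukocytes) and CD326 (epithelium), selected for PDGFRβ and grown again on gelatin. The fluid was given in both groups as a 1:1 mix with reduced-serum culture medium. Another 6 libraries of 24 h, given as values beside the comparison, came from cells in the same medium mixed with sterile saline (media only). The labels used here state neither the strain and age of the mice, nor the kind of lung injury, nor whether numbered libraries came from separate animals, cultures or pools of fluid, so p-values measure the spread between libraries, which may be technical.

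Pericytes are the mural cells of capillaries. They lie in the basement membrane shared with the endothelium, depend on PDGF-B signalling through PDGFRβ, and in the lung contribute to vessel support, to the recruitment of leukocytes and to the matrix laid down during repair. Many stromal cells answer microbial products and the cytokines IL-1 and TNF through NF-kB, a family of transcription factors held in the cytoplasm by IkB proteins, whose targets include chemokines, adhesion molecules and the genes of its own inhibitors.

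The libraries held 20910980 to 33023570 counts in injured BALF and 21515039 to 35991683 in uninjured BALF. The first principal component of the 12 libraries did not follow treatment. It carried 28.8% of the variance and set injured female library 3 (score -65.4) and uninjured female library 1 (score -61.0) apart from the other 10 (-16.7 to 37.3). In these libraries the summed level of 9 smooth muscle markers was 5420 CPM (injured female 3) and 5610 CPM (uninjured female 1), against 7640 to 9570 CPM in the other injured and 11000 to 14700 CPM in the other uninjured libraries. CPM are counts scaled to library size, a level not corrected for gene length. Counts of called genes are therefore also given without both. The second component, with 24.7% of the variance, separated most libraries by treatment. Injured libraries scored 4.67 to 49.5 on it, except injured female library 3 at -11.7. Uninjured libraries scored -44.4 to -8.21, except uninjured female library 2 at 27.4. Libraries numbered 1 and 2 resembled each other: in 10 of the 12 groups of the series they were the closest pair, with a median coefficient of variation beyond counting noise of 8.3%, against 24.4% between numbers 1 and 3. The exceptions were the female groups of uninjured BALF and of media at 24 h. In uninjured BALF, female, 24 h, numbers 1 and 2 were the farthest pair, at 34.7%, and numbers 2 and 3 the closest, at 15.7%. The counts of called genes are given as well with numbers 1 and 2 of each group summed to 1 library; in that group the sum joins 2 unlike libraries, one of which stands apart. Of the 12 libraries, uninjured male library 3 carries a description number from a separate series, shared with 3 media libraries and no injured one. What that series stands for is not stated, and without these 4 libraries 598 genes passed.

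**Figure D1:**
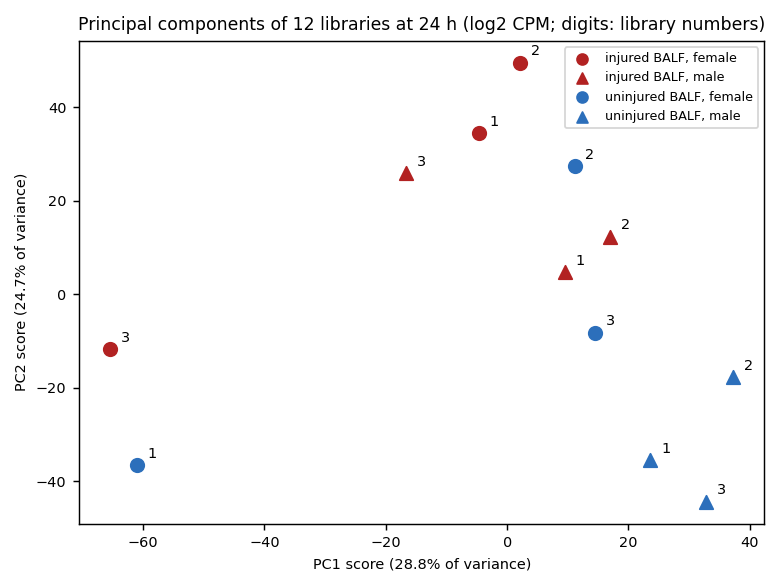
Scores of the 12 libraries on the first (x axis, 28.8% of variance) and second (y axis, 24.7%) principal components of log2 CPM; red marks injured BALF, blue uninjured BALF, circles female, triangles male, and digits are the library numbers. Injured female library 3 and uninjured female library 1 lie at the far left, at -65.4 and -61.0.

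Markers were checked against the label. Pdgfrb, the receptor used for selection, was at 303 to 618 CPM (median 483) in injured BALF and 488 to 758 CPM (median 643) in uninjured BALF. The mural gene Cspg4, which encodes the proteoglycan NG2, was at 14.2 to 56.6 CPM (median 34.5) in injured and 21.2 to 101 CPM (median 79.1) in uninjured BALF. Notch3, a receptor that mural cells need, was at 16.6 to 45.4 CPM (median 19.0) in injured and 16.0 to 52.0 CPM (median 26.3) in uninjured BALF, whereas Higd1b had no count in any of the 12 and Rgs5 stayed at or below 10.0 CPM. The 12 fibroblast markers summed to 1090 to 1410 CPM (median 1290) in injured and 1200 to 1370 CPM (median 1240) in uninjured BALF, and the 15 pericyte markers to 832 to 1500 CPM (median 1240) in injured and 1280 to 2090 CPM (median 1770) in uninjured BALF. Macf1, a broadly expressed cytoskeletal linker gene, was the most abundant of the fibroblast list, at 461 to 685 CPM (median 629) in injured and 449 to 769 CPM (median 674) in uninjured BALF. Pdgfra, the PDGF receptor typical of lung fibroblasts, was at 96.2 to 319 CPM (median 139.5) in injured and 74.2 to 312 CPM (median 158) in uninjured BALF. Of 11 tested fibroblast markers 1, Dcn, rose and none fell. The ranges of both sums overlapped in injured and in uninjured BALF, and sums over lists of different genes do not compare cell numbers. Of the other cell types, 13 macrophage markers summed to 59.4 to 78.9 CPM in injured and 14.7 to 92.9 CPM in uninjured BALF, and 12 endothelial markers to 34.9 to 206 CPM in injured and 11.1 to 159 CPM in uninjured BALF. None of the macrophage or endothelial markers passed the test. Uninjured male library 3 held the lowest of these sums, 14.7 CPM for macrophages and 11.1 CPM for endothelium, against 57.9 to 92.9 CPM and 39.3 to 159 CPM in the other uninjured libraries. Both 24 h media libraries with description numbers of the same series were also low, at 14.3 and 15.8 CPM for macrophages and 20.0 and 13.1 CPM for endothelium. The part of this in the results was not tested. The 8 mesothelial markers summed to 173 CPM in injured male library 3 and at most 90.7 CPM in the other 11 libraries. The 8 lymphocyte markers summed to at most 0.472 CPM, with Cd3e and Cd4 at 0 in all 12 libraries. Epithelial Epcam and the surfactant genes were too low to be tested; Abca3, the lipid transporter of alveolar type II cells, made up most of the epithelial sum of 51.2 to 72.4 CPM in injured and 49.9 to 60.8 CPM in uninjured BALF. In bulk libraries fewer cells of a type and less RNA per cell cannot be told apart.

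Of 15901 genes tested, 703 (4.42%) passed an adjusted p of 0.05 between injured and uninjured BALF (edgeR quasi-likelihood test, Benjamini-Hochberg). Of these, 379 (2.38%) rose and 324 (2.04%) fell. The same shares are the ones to set beside each count of list members below. The changes of the risen genes were the larger ones: 255 genes (1.6%) changed 2-fold or more, of which 171 (1.08%) rose and 84 (0.528%) fell. Genes that rose had a median log2 fold change of 0.91 and those that fell one of -0.65, while the median over all genes tested was -0.0038. Libraries of both groups did not overlap for 324 genes (2.04%), 169 (1.06%) with injured BALF higher and 155 (0.975%) with it lower. Without both libraries that stand apart 711 genes passed. With numbers 1 and 2 summed 174 passed, 118 up and 56 down. Leaving out single libraries gave 331 genes without uninjured female library 3, 417 without uninjured male library 1, and 470 to 967 in the other 10 fits.

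Within uninjured BALF, female libraries 1 and 2 held more RNA of many of the induced genes than the other 4. They were the highest uninjured libraries for 174 of the 379 risen genes (45.9%) and for 1147 of all genes tested (7.21%). Nos2, for example, was at 3.39 and 6.51 CPM in these libraries and at 0.0277 to 0.105 CPM in the other uninjured libraries. Leaving out uninjured female library 1 gave 730 called genes (409 up, 321 down), and leaving out uninjured female library 2 gave 967 (576 up, 391 down).

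The chemokines that draw neutrophils, together with the colony-stimulating factors, made up the group with the highest median, 3.73 on the log2 scale. Of 8 measured members 6 rose and none fell, where 2.38% of all genes tested rose, and the groups did not overlap for any of the 6. Cxcl2, a ligand of the neutrophil receptor CXCR2, was at 5.35 to 7.85 CPM (median 7.04) in injured BALF, against 0 to 2.74 CPM (median 0.248) in uninjured BALF, a log2 fold change of 4.26 ± 0.50 (SE, adjusted p = 4.8e-06). Values with ± given for other genes are likewise log2 fold changes of injured over uninjured BALF with their standard errors, and the single-library fits are the 12 fits that each leave out 1 library. Cxcl5, another CXCR2 ligand, was at 122 to 471 CPM (median 261) in injured and 1.13 to 84.2 CPM (median 6.93) in uninjured BALF (4.14 ± 0.76, adjusted p = 0.0011). Every injured library stood above every uninjured one, although uninjured female libraries 1 and 2 came within a small distance for Cxcl5, at 84.2 and 47.4 CPM. Cxcl1 reached 126 to 358 CPM (median 164) in injured and 0.543 to 80.9 CPM (median 6.65) in uninjured BALF (3.57 ± 0.73, adjusted p = 0.0032). Cxcl3 reached 5.97 to 10.7 CPM (median 7.94) in injured and 0.0351 to 4.04 CPM (median 0.218) in uninjured BALF (3.77 ± 0.61, adjusted p = 0.00044). Csf3 encodes G-CSF, the growth factor of neutrophil precursors. It was at 3.26 to 9.95 CPM (median 6.55) in injured and 0.0452 to 2.52 CPM (median 0.276) in uninjured BALF (3.68 ± 0.56, adjusted p = 0.00021). Csf2, encoding GM-CSF, rose by 3.88 ± 0.71 at a low level of at most 2.50 CPM in injured BALF. Csf1, which maintains macrophages, was at 1563 to 3013 CPM (median 2509) in injured and 1595 to 2816 CPM (median 2149) in uninjured BALF and did not pass (adjusted p = 0.74); the platelet chemokine gene Ppbp did not pass either (adjusted p = 0.26). With numbers 1 and 2 summed 4 of the 6 calls held, and those of Cxcl5 (adjusted p = 0.074) and Cxcl1 (adjusted p = 0.09) did not. Cxcl1, Cxcl2 and Cxcl3 are close paralogs on chromosome 5, so reads could be shared between them in the authors' counting.

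The promoters of the 4 genes with the largest fold change among those named by size that belong to a gene list and hold a match to the NF-kB consensus are given below, because NF-kB is known to act at chemokine promoters. Each runs 5′ to 3′ over the 250 bases before the RefSeq transcription start (GRCm38.p6, plus strand), with letters that match the consensus on either strand in capitals. A match is a description of the sequence and not evidence of binding. Nos2, Saa3, Lcn2, Cxcl5, Il1a and Csf3 rose more than Steap4 and were not picked by this rule. The 4 promoters therefore do not stand for the largest rises.
Cxcl2, chr5:90903649-90903898: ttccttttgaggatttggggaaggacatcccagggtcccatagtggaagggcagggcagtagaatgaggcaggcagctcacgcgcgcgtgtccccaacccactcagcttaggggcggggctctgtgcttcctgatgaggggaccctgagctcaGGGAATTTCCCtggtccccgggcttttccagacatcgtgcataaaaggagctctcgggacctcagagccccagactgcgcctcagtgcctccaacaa
Cxcl3, chr5:90785851-90786100: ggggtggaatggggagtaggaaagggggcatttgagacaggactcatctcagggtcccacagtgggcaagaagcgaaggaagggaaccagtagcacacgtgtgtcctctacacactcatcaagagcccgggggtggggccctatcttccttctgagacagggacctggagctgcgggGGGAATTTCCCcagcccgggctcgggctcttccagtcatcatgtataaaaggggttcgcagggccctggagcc
Steap4, chr5:7960222-7960471: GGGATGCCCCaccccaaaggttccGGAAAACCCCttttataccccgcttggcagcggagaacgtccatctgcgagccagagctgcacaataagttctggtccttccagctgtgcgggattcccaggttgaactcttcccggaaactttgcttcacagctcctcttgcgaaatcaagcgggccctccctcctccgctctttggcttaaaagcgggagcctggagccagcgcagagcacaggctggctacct
Cxcl1, chr5:90890995-90891244: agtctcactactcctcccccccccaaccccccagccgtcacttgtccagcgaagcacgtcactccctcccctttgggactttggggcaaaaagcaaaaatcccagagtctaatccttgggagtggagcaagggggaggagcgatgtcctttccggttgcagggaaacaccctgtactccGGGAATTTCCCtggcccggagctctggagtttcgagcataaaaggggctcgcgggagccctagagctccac
In the 3 chemokine promoters the match starts 97 (Cxcl2), 73 (Cxcl3) and 71 (Cxcl1) bases before the start and reads GGGAATTTCCC in each. For counting matches the window ran from 250 bases before to 50 bases after the start. Of 264 risen genes with a known promoter 15.5% held a match, as did 23.1% of the 108 that rose 2-fold or more, 5.31% of 245 that fell and 6.35% of all 11132 tested genes with a promoter. For the AP-1 consensus TGANTCA the shares were 14% of risen, 25.0% of those risen 2-fold or more, 8.16% of fallen and 6.69% of all genes. TATAAA, the TATA box, was in 15.9% of risen, 25.9% of those risen 2-fold or more, 12.2% of fallen and 9.15% of all promoters. GGAATG, the core bound by TEAD factors, was in 17.0% of risen, 21.3% of those risen 2-fold or more, 18.4% of fallen and 14.6% of all. The cyclic AMP response element TGACGTCA was found in 1.89% of risen, 0.926% of those risen 2-fold or more, 2.86% of fallen and 3.49% of all promoters, and the SRF CArG box in 1.14% of risen, 1.85% of those risen 2-fold or more, 3.27% of fallen and 1.64% of all. All motifs were searched on both strands, the letters TGACGTCA hold no TGANTCA, and no test was made of these shares.

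Of 16 other measured chemokine genes 7 rose and none fell, with a list median of 1.73. Ccl2, the ligand of the monocyte receptor CCR2, was at 798 to 973 CPM (median 907) in injured and 32.9 to 421 CPM (median 61.7) in uninjured BALF (3.07 ± 0.39, adjusted p = 1.5e-05). Its neighbour Ccl7, which also binds CCR2, was at 385 to 745 CPM (median 446) in injured and 21.1 to 199 CPM (median 43.4) in uninjured BALF (2.71 ± 0.49). The injured libraries lay in a narrow band for Ccl2, whereas uninjured female library 2 reached 421 CPM. Cxcl16, a membrane-bound chemokine, had one of the smallest p-values, with 39.4 to 56.4 CPM (median 47.8) in injured and 5.79 to 27.7 CPM (median 8.52) in uninjured BALF (2.14 ± 0.21, adjusted p = 3.8e-07). Ccl20, which attracts CCR6-bearing lymphocytes and dendritic cells, rose by 3.45 ± 0.65. Its groups overlapped, with 44.6 to 112 CPM (median 72.1) in injured and 0.960 to 53.9 CPM (median 2.05) in uninjured BALF; uninjured female library 2 held 53.9 CPM and the other 5 at most 3.45 CPM. Cxcl10 (2.02 ± 0.41), Ccl5 (1.76 ± 0.39) and Ccl11 (2.44 ± 0.64) rose at levels of at most 5.88 CPM. The call of Ccl11 was lost in 5 of the 12 single-library fits, adjusted p up to 0.084 without injured male library 1. Cxcl12, the CXCR4 ligand that stromal cells make at rest, did not pass, with 366 to 939 CPM (median 561) in injured and 474 to 1131 CPM (median 771) in uninjured BALF (adjusted p = 0.32). Fractalkine, Cx3cl1, did not pass either (-0.24 ± 0.25).

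**Figure D2:**
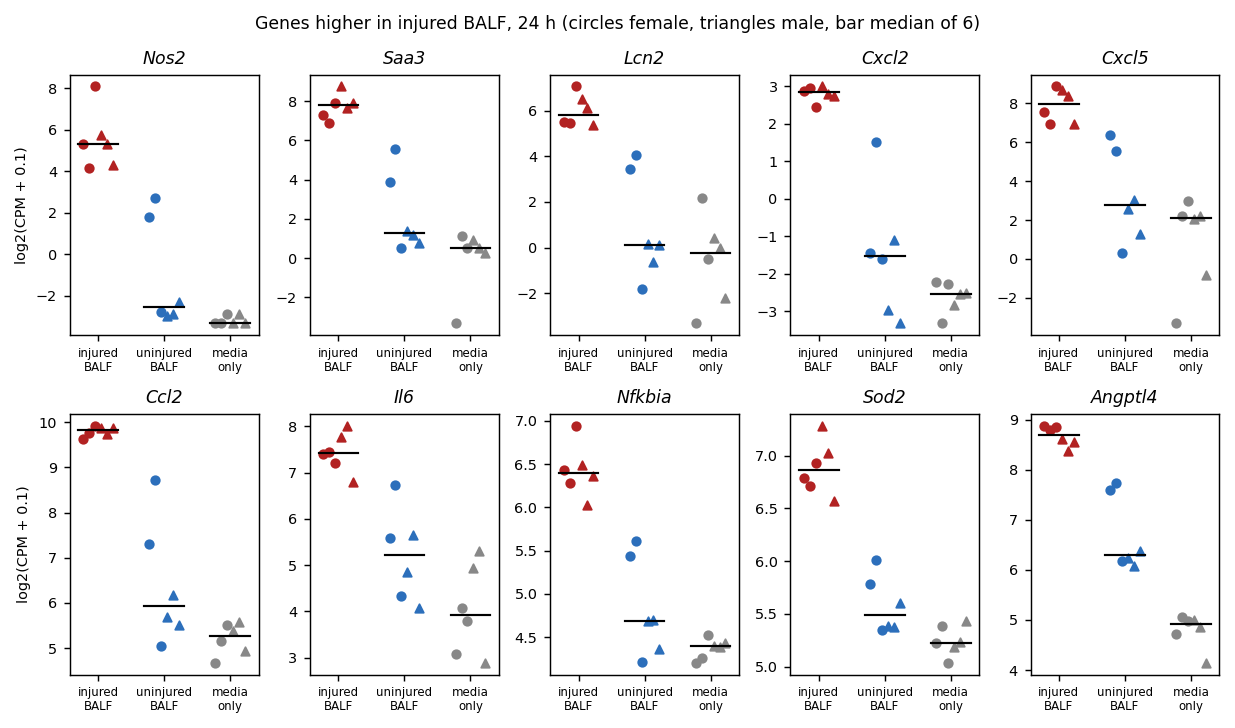
Level of 10 genes that rose, as log2(CPM + 0.1) on each y axis, in the 6 libraries of injured BALF (red), uninjured BALF (blue) and media only (grey); circles are female, triangles male and bars the median. For Nos2 and Saa3 the injured libraries lie above all others, and 2 of the 3 uninjured female libraries lie above the remaining uninjured ones.

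Genes of NF-kB itself formed the group with the most calls: 13 of 23 measured members rose and none fell, with a median of 0.76. The 13 calls stood between 11 and 14 when single libraries were left out, at 13 without both libraries that stand apart and at 8 with numbers 1 and 2 summed. Among inhibitors and feedback genes, Nfkbia, which encodes the inhibitor IkBα, was at 65.3 to 123 CPM (median 84.0) in injured and 18.5 to 48.6 CPM (median 25.8) in uninjured BALF (1.55 ± 0.17, adjusted p = 2.3e-06). Zc3h12a, whose product Regnase-1 degrades cytokine messenger RNA, rose by 1.75 ± 0.23, and Tnfaip3, which encodes the ubiquitin-editing enzyme A20, by 1.58 ± 0.30. Its partners Tnip1 (0.94 ± 0.12) and Tnip3 (3.11 ± 0.47, at most 1.94 CPM) rose as well. Nfkbiz, an atypical IkB protein needed for part of the late response, was at 184 to 256 CPM (median 220.5) in injured and 56.6 to 159.6 CPM (median 69.8) in uninjured BALF (1.32 ± 0.26). The subunit genes rose less: Relb by 0.76 ± 0.13, Nfkb1 by 0.78 ± 0.14 and Nfkb2 by 0.58 ± 0.10. Rela, the subunit regulated mainly at the protein level, did not pass, with 77.0 to 86.3 CPM (median 83.7) in injured and 69.1 to 79.5 CPM (median 76.5) in uninjured BALF (adjusted p = 0.59). Zfp36, which destabilises cytokine transcripts, did not pass (-0.15 ± 0.42, adjusted p = 0.92).

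Of 23 receptors and adaptors that sense microbes or TNF, 4 rose and none fell. Tlr2, the receptor for bacterial lipopeptides, was at 9.47 to 29.7 CPM (median 15.8) in injured and 2.49 to 11.6 CPM (median 6.28) in uninjured BALF (1.44 ± 0.29, adjusted p = 0.0029). The co-stimulatory receptor gene Tnfrsf9 rose by 1.97 ± 0.34, the death receptor gene Fas by 0.71 ± 0.16 and the adaptor kinase Ripk2 by 0.82 ± 0.24. The call of Ripk2 was lost in 9 of the 12 single-library fits, adjusted p up to 0.12 without uninjured male library 3. Cd14, the lipopolysaccharide co-receptor gene, did not pass (0.60 ± 0.20, adjusted p = 0.081), nor did the TNF receptor gene Tnfrsf1a (-0.11 ± 0.08). In the IL-6 family 3 of 16 members rose, the third being the IkB family gene Bcl3 (0.86 ± 0.22), and 1 fell. Il6 was at 112 to 259 CPM (median 171) in injured and 16.7 to 106 CPM (median 38.2) in uninjured BALF (2.06 ± 0.41, adjusted p = 0.0023), with no overlap. Lif, a related cytokine that signals through the same receptor subunit, rose by 1.94 ± 0.40, and that shared subunit, Il6st, fell by 0.54 ± 0.14 on the log2 scale. The call of Il6st was lost in 5 of the 12 single-library fits, adjusted p up to 0.12 without uninjured female library 1. The call of Bcl3 was lost in 4 of the 12 single-library fits, adjusted p up to 0.095 without uninjured female library 3. Of 14 genes of the IL-1 family 2 rose: Il1a, at 0.166 to 14.6 CPM (median 4.38) in injured and 0 to 1.80 CPM (median 0.0903) in uninjured BALF (4.03 ± 0.74, adjusted p = 0.0012), and Tslp (0.89 ± 0.26). The call of Tslp was lost in 8 of the 12 single-library fits, adjusted p up to 0.2 without injured male library 3. The Il1a groups overlapped, with 0.166 CPM in injured female library 3. The IL-1 receptor gene Il1r1 did not pass (0.47 ± 0.27).

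Nos2, the inducible nitric oxide synthase (ENSMUSG00000020826, GRCm38 chr11:78920787-78960254, plus strand), had the largest log2 fold change of the genes named by size. It was at 17.5 to 271 CPM (median 39.4) in injured BALF, 0.0277 to 6.51 CPM (median 0.0753) in uninjured BALF and at most 0.0361 CPM in media, a log2 fold change of 7.17 ± 0.71 between injured and uninjured BALF (adjusted p = 3.8e-07). Injured female library 3 was far above the other injured libraries, at 271 CPM against 17.5 to 52.6 CPM, and without both libraries that stand apart the change was 6.20. Slc7a2 and Gch1, which supply substrate and cofactor, rose too. Slc7a2, an importer of arginine, was at 77.3 to 197 CPM (median 120.0) in injured and 8.11 to 50.8 CPM (median 13) in uninjured BALF (2.68 ± 0.42, adjusted p = 0.00026). Gch1, the first enzyme on the path to tetrahydrobiopterin, changed by 1.28 ± 0.20. The arginases, which compete for arginine, also rose at low levels: Arg1 was at 0.781 to 1.94 CPM (median 1.17) in injured and 0.0702 to 0.494 CPM (median 0.196) in uninjured BALF (2.48 ± 0.51) and Arg2 at most at 0.755 CPM in injured BALF (3.33 ± 0.60). Odc1, the first enzyme of polyamine synthesis, was at 298 to 612 CPM (median 411) in injured and 172 to 355 CPM (median 183) in uninjured BALF (0.99 ± 0.17). Altogether 6 of the 14 measured genes of this group rose and none fell. Ass1, which regenerates arginine from citrulline (0.49 ± 0.17, adjusted p = 0.12), and the constitutive importer Slc7a1 (-0.25 ± 0.20) did not pass.

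Of 14 acute phase and innate defence genes 8 rose and none fell, with a median of 2.14; with numbers 1 and 2 summed 4 were called. Saa3, the serum amyloid A gene that extrahepatic tissues express, was at 116 to 430.0 CPM (median 221) in injured and 1.36 to 46.5 CPM (median 2.32) in uninjured BALF (5.08 ± 0.56, adjusted p = 2.2e-06). Lcn2, which sequesters bacterial siderophores, was at 41.7 to 133 CPM (median 57.0) in injured and 0.181 to 16.6 CPM (median 0.990) in uninjured BALF (4.65 ± 0.69, adjusted p = 0.00015). The groups did not overlap for either gene. Steap4, a metalloreductase whose promoter is printed above, rose by 3.64 ± 0.53, and the copper-carrying ferroxidase gene Cp was at 82.5 to 179 CPM (median 133) in injured and 8.69 to 52.3 CPM (median 21.9) in uninjured BALF (2.33 ± 0.40, adjusted p = 0.00059). Hp, encoding the haemoglobin scavenger haptoglobin, rose by 2.95 ± 0.62 with overlapping groups, at 1.88 to 26.8 CPM (median 7.73) in injured and 0 to 2.43 CPM (median 1.27) in uninjured BALF. Slpi, a protease inhibitor of airway secretions (2.67 ± 0.65), and Camp, the cathelicidin precursor (2.71 ± 0.69, at most 1.66 CPM), rose with calls that depended on single libraries. The call of Slpi was lost without injured male library 3, uninjured female library 3 or uninjured male library 1, adjusted p up to 0.12. The call of Camp was lost without injured female library 3, uninjured female library 3 or uninjured male library 2, adjusted p up to 0.067. Camp is also on the neutrophil marker list, which summed to 5.58 to 9.14 CPM in injured and 0.943 to 4.85 CPM in uninjured BALF; Mmp8 made up most of it, Ly6g had no count in any of the 12 libraries, and its part in these results was not tested. Of the 6 measured genes of the Serpina3 cluster, protease inhibitors of the antitrypsin family, 4 rose, from 1.66 ± 0.37 for Serpina3h to 3.87 ± 0.61 for Serpina3f, while Serpina3n did not pass (-0.24 ± 0.53); these paralogs are nearly identical in places and their reads may have been split.

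Genes for metals and for oxidant defence rose in part. Of 16 measured genes for metallothioneins, zinc and iron 5 rose and none fell, and 3 were called without uninjured female library 3. The metallothionein gene Mt1, whose product binds zinc and copper, was at 182 to 319 CPM (median 214) in injured and 77.4 to 203 CPM (median 112) in uninjured BALF (0.94 ± 0.18). Its paralog Mt2 rose by 1.29 ± 0.25, and the groups overlapped for both; reads of these short, similar genes may have been shared. Slc11a2, the importer of ferrous iron, was at 92.3 to 125 CPM (median 114) in injured and 42.6 to 80.7 CPM (median 48.2) in uninjured BALF (1.07 ± 0.12, adjusted p = 3.4e-06), with no overlap. Slc39a14, a transporter of zinc and iron (0.62 ± 0.15), and the transferrin receptor gene Tfrc (0.56 ± 0.15) completed the 5. The call of Slc39a14 was lost without uninjured female library 3, adjusted p = 0.058. The call of Tfrc was lost in 6 of the 12 single-library fits, adjusted p up to 0.087 without uninjured male library 1. Sod2, the mitochondrial superoxide dismutase, was at 95.2 to 156 CPM (median 116) in injured and 40.5 to 64.3 CPM (median 45.0) in uninjured BALF (1.31 ± 0.13, adjusted p = 3.8e-07). Prdx6 (0.75 ± 0.14) and Glrx (0.94 ± 0.25) were the other called members among 18 scavenging enzymes. The call of Glrx was lost in 6 of the 12 single-library fits, adjusted p up to 0.11 without uninjured female library 3. Of 26 targets of NRF2, the factor that answers electrophiles, 2 rose, Abcc1 and Nfe2l2 itself. The call of Nfe2l2 was lost in 7 and that of Abcc1 in 2 of the 12 single-library fits. In this list 19 fold changes were positive, with a median of 0.4. An unadjusted p under 0.05 was reached by 12 members in edgeR, and DESeq2 called 3. Without both libraries that stand apart 5 rose. In the single-library fits none rose without injured male library 3 or uninjured female library 3, and 5 without uninjured female library 1. Hmox1, the haem-degrading enzyme, did not pass at 752 to 2805 CPM (median 1187) in injured and 392 to 1273 CPM (median 760.1) in uninjured BALF (0.94 ± 0.31, adjusted p = 0.083).

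Adhesion molecules for leukocytes rose in 5 of 15 cases and none fell. Vcam1, which binds the integrin VLA-4, was at 752 to 965 CPM (median 833) in injured and 281 to 645 CPM (median 353) in uninjured BALF (1.04 ± 0.15, adjusted p = 0.00011). Icam1, which binds the leukocyte integrin LFA-1, was at 38.3 to 62.5 CPM (median 48.0) in injured and 13.9 to 36.9 CPM (median 25.1) in uninjured BALF (0.98 ± 0.19, adjusted p = 0.0022). Neither gene's groups overlapped. Selp and Sele, the selectins usually described in endothelium, rose by 2.26 ± 0.31 and 2.09 ± 0.49. Selp was at 37.4 to 74.9 CPM (median 49.7) in injured and 3.20 to 29.2 CPM (median 9.85) in uninjured BALF. The 12 endothelial markers had a median log2 fold change of 0.6 and none passed. Among them were Pecam1 (0.78 ± 0.60, adjusted p = 0.57), Cdh5 (0.80 ± 0.59, adjusted p = 0.55) and Kdr (-0.74). The part of endothelial cells in the selectin values was not tested. Cd47, the signal that restrains phagocytes, rose by 0.68 ± 0.16. The call of Cd47 was lost without uninjured female library 3, adjusted p = 0.055. In the prostanoid and kinin group 5 of 17 members rose and 1 fell. Ptges, the inducible prostaglandin E synthase, was at 85.5 to 155 CPM (median 120.1) in injured and 25.5 to 97.8 CPM (median 35.1) in uninjured BALF (1.42 ± 0.21, adjusted p = 0.00016), and the bradykinin receptor genes Bdkrb1 (1.74 ± 0.30) and Bdkrb2 (1.95 ± 0.40) both rose. Ptgs2, the inducible cyclooxygenase, did not pass, at 538 to 1991 CPM (median 1481) in injured and 302 to 1378 CPM (median 570.0) in uninjured BALF (adjusted p = 0.22). The thromboxane receptor gene Tbxa2r fell by 1.08 ± 0.32. The call of Tbxa2r was lost in 9 of the 12 single-library fits, adjusted p up to 0.16 without uninjured male library 1. Serpinb2, an inhibitor of plasminogen activators, was the 1 called gene of 17 for coagulation and fibrinolysis, at 35.8 to 79.2 CPM (median 47.7) in injured and 2.17 to 26.9 CPM (median 4.39) in uninjured BALF (2.72 ± 0.47). In that list 3 members rose without injured female library 3 or uninjured female library 2.

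Lipid genes moved in both directions. Of 27 genes of lipid droplets and of PPAR and LXR targets 4 rose and 1 fell. Angptl4, a secreted inhibitor of lipoprotein lipase, was at 332 to 472 CPM (median 418) in injured, 67.5 to 214 CPM (median 79.2) in uninjured BALF and 17.6 to 33.5 CPM (median 30.2) in media (1.91 ± 0.19 for injured over uninjured BALF, adjusted p = 3.8e-07). Plin2, which coats lipid droplets, rose by 0.85 ± 0.17, Pdk4, which diverts pyruvate from oxidation, by 0.95 ± 0.21 and Acadl, an acyl-CoA dehydrogenase, by 0.30 ± 0.08. The call of Acadl was lost in 4 of the 12 single-library fits, adjusted p up to 0.096 without uninjured female library 3. Plin4, another coat protein gene, fell to 0.626 to 1.14 CPM (median 1.01) in injured BALF, against 1.75 to 4.21 CPM (median 3.35) in uninjured BALF (-1.77 ± 0.28, adjusted p = 0.00033), with no overlap. Of 31 genes of sterol and fatty acid synthesis 27 had a negative fold change, with a median of -0.28, but only Mvk, mevalonate kinase, was called (-0.59 ± 0.13, adjusted p = 0.0062); 16 had an unadjusted p under 0.05 and DESeq2 called 2. In the single-library fits 6 fell without uninjured female library 2 and 3 without injured female library 3. Lrig1, a negative regulator of EGF receptors, was the 1 called gene of 12 in the EGF family, at 206 to 239 CPM (median 226) in injured and 76.5 to 157 CPM (median 83.7) in uninjured BALF (1.27 ± 0.13, adjusted p = 3.8e-07).

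**Figure D3:**
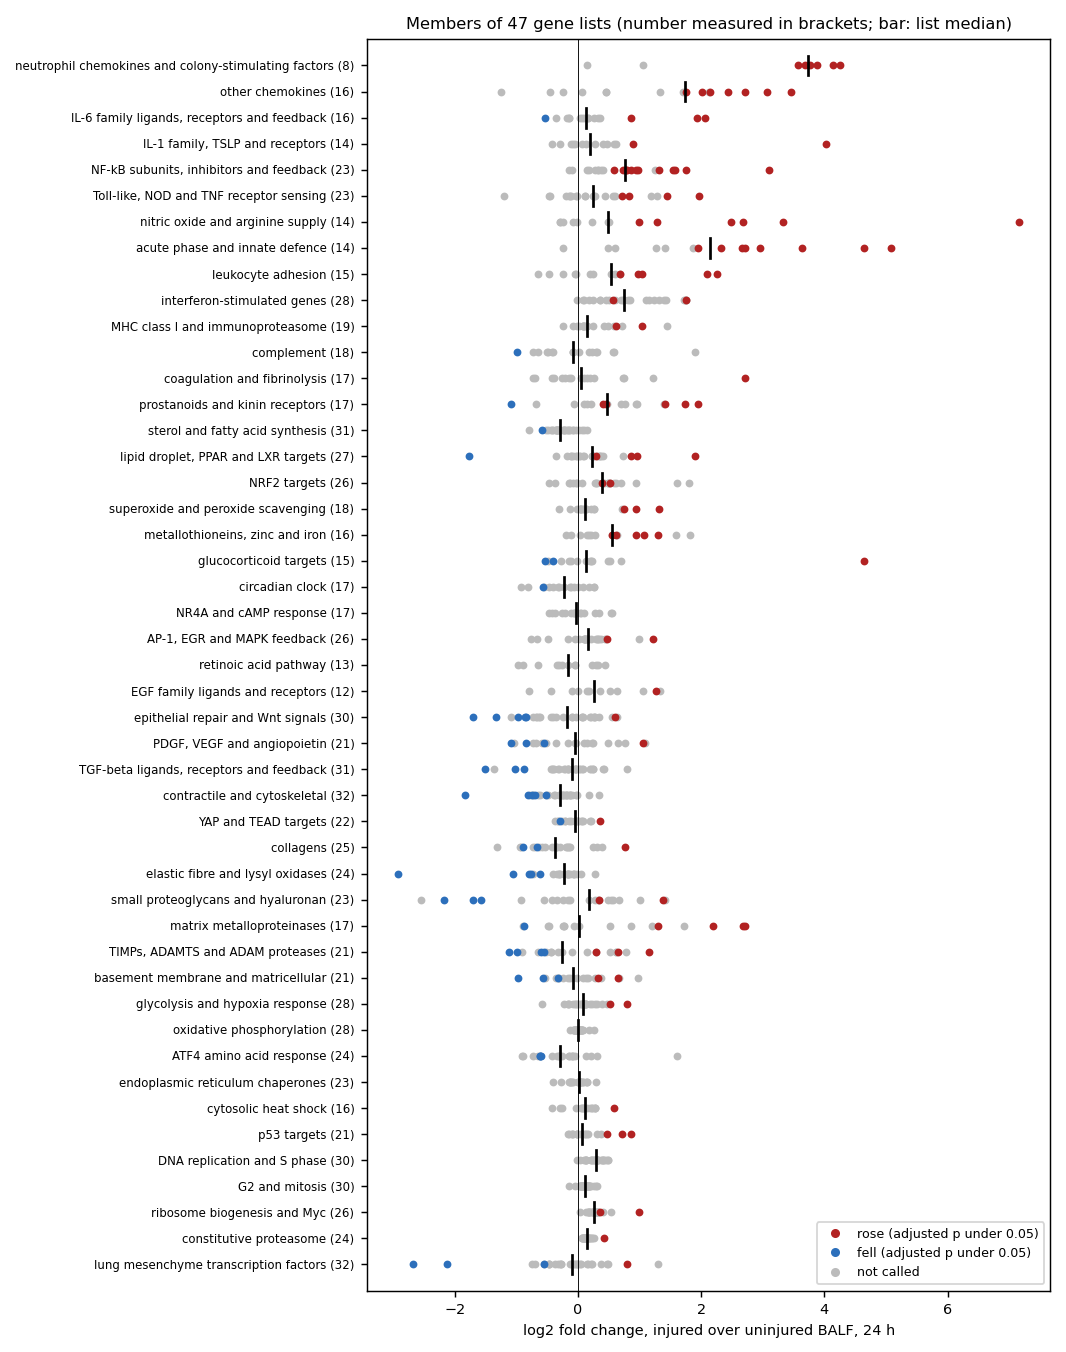
Log2 fold change of injured over uninjured BALF at 24 h (x axis) for every measured member of 47 gene lists (rows, number measured in brackets); red points rose and blue points fell at an adjusted p under 0.05, grey points were not called, and black bars are list medians. The neutrophil chemokine list has the highest median, 3.73, and no list has more than 5 blue points.

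Matrix proteases and their inhibitors changed in both directions. Of 17 matrix metalloproteinase genes 4 rose and 1 fell. The collagenase gene Mmp13 was at 51.2 to 246 CPM (median 123) in injured and 7.74 to 72.4 CPM (median 12.5) in uninjured BALF (2.70 ± 0.41, adjusted p = 0.00021). The gelatinase gene Mmp9 was at 2.14 to 14.6 CPM (median 7.50) in injured and 0.407 to 3.37 CPM (median 0.877) in uninjured BALF (2.69 ± 0.43, adjusted p = 0.00035). Both had overlapping groups. Mmp10, stromelysin-2 (2.19 ± 0.50), and Mmp8, neutrophil collagenase (1.30 ± 0.31), rose too, and Mmp17, a membrane-anchored member, fell to 11.8 to 16.3 CPM (median 14.3) in injured BALF, against 16.6 to 35.6 CPM (median 26.3) in uninjured BALF (-0.87 ± 0.19). The call of Mmp8 was lost without uninjured female library 3, adjusted p = 0.055. Mmp3 (1.72 ± 0.60, adjusted p = 0.11) and Mmp2 (-0.25 ± 0.35) did not pass. Of 21 TIMP, ADAMTS and ADAM genes 3 rose and 4 fell. Timp3, an inhibitor bound to the matrix, fell to 610.4 to 1336 CPM (median 756) in injured BALF, against 1350 to 2411 CPM (median 1679) in uninjured BALF (-1.12 ± 0.18, adjusted p = 0.0004). Timp1, a soluble inhibitor, was at 1448 to 1962 CPM (median 1751) in injured and 916 to 1340 CPM (median 1055) in uninjured BALF (0.64 ± 0.18). The call of Timp1 was lost in 6 of the 12 single-library fits, adjusted p up to 0.12 without uninjured female library 3. Adamts5, which cleaves aggrecan and versican, fell to 95.9 to 199 CPM (median 159.5) in injured BALF, against 254 to 344 CPM (median 302) in uninjured BALF (-0.99 ± 0.17, adjusted p = 0.00064). Adamts7, which cleaves cartilage oligomeric matrix protein, was higher, at 23.6 to 45.2 CPM (median 27.8) in injured and 9.32 to 18.7 CPM (median 14.1) in uninjured BALF (1.16 ± 0.17, adjusted p = 0.00011). The membrane-bound inhibitor gene Reck fell by 0.60 ± 0.12 on the log2 scale, and Adam17, which sheds TNF and EGF family ligands, rose by 0.30 ± 0.06.

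Of 24 genes of elastic fibres and lysyl oxidases 5 fell and none rose, where 2.04% of all genes tested fell. In this list 22 of 24 fold changes were negative, with a median of -0.23. Eln encodes tropoelastin, the core of the fibre (ENSMUSG00000029675, GRCm38 chr5:134702593-134747323, minus strand). It was at 6.70 to 30.5 CPM (median 18.9) in injured BALF, 16.3 to 295 CPM (median 135) in uninjured BALF and 129 to 858 CPM (median 416) in media, a log2 fold change of -2.92 ± 0.72 between injured and uninjured BALF (adjusted p = 0.015). The spread within uninjured BALF was wide, with 16.3 CPM in female library 1 and 295 CPM in male library 1, and the groups overlapped. Fbln5, encoding fibulin-5, which guides elastin onto microfibrils, was at 131 to 383 CPM (median 242) in injured and 324 to 783 CPM (median 571) in uninjured BALF (-1.05 ± 0.28, adjusted p = 0.023). Efemp1, a related fibulin gene (-0.76 ± 0.22), the lysyl oxidase gene Loxl3 (-0.61 ± 0.15) and the prolyl hydroxylase gene P4ha3 (-0.80 ± 0.19) were the other called members. The call of Eln was lost without injured male library 3, uninjured female library 3 or uninjured male library 1, adjusted p up to 0.088. The call of Fbln5 was lost in 4 of the 12 single-library fits, adjusted p up to 0.11 without uninjured female library 3. The call of Efemp1 was lost in 8 of the 12 single-library fits, adjusted p up to 0.14 without injured male library 3. The call of Loxl3 was lost in 4 of the 12 single-library fits, adjusted p up to 0.086 without uninjured female library 3. In this list 1 member fell without injured male library 3 or uninjured female library 3, 2 without injured female library 2 or uninjured male library 1, and none with numbers 1 and 2 summed. The more abundant members did not pass: Fbn1, the fibrillin of microfibrils, was at 1410 to 2426 CPM (median 1775) in injured and 1532 to 2908 CPM (median 2348) in uninjured BALF (adjusted p = 0.26). Lox was at 2849 to 3985 CPM (median 3454) in injured and 2655 to 4256 CPM (median 3610) in uninjured BALF (adjusted p = 0.9).

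Among 25 collagen genes 2 fell and 1 rose, where 2.04% of all genes tested fell and 2.38% rose. Of the collagen fold changes 21 were negative. Without injured female library 3, 4 members fell, and without uninjured female library 3, 1 fell. Col6a3, a chain of the microfibrillar collagen VI, was at 229 to 549 CPM (median 403) in injured and 343 to 1118 CPM (median 813) in uninjured BALF (-0.89 ± 0.19, adjusted p = 0.0055). For collagen V the chains diverged: Col5a1 was at 1102 to 1602 CPM (median 1421) in injured and 1583 to 2858 CPM (median 2077) in uninjured BALF (-0.67 ± 0.16, adjusted p = 0.01). Col5a3 was at 50.4 to 72.2 CPM (median 58.6) in injured and 28.9 to 38.5 CPM (median 36.4) in uninjured BALF (0.76 ± 0.16, adjusted p = 0.0033). The call of Col5a1 was lost without uninjured female library 3, adjusted p = 0.059. The chains of collagen I did not pass, with Col1a1 at 5302 to 9301 CPM (median 7483) in injured and 6364 to 12280 CPM (median 9149) in uninjured BALF (adjusted p = 0.41) and Col1a2 at an adjusted p of 0.37. Of 23 genes for small proteoglycans and hyaluronan 3 fell and 2 rose. Podn, podocan, was at 5.07 to 16.4 CPM (median 7.61) in injured and 10.5 to 47.9 CPM (median 28.1) in uninjured BALF (-1.71 ± 0.33, adjusted p = 0.0017), and the related Ogn (-1.58 ± 0.43) and Aspn (-2.17 ± 0.64) fell as well. The call of Ogn was lost in 9 of the 12 single-library fits, adjusted p up to 0.11 without uninjured female library 1. The call of Aspn was lost in 8 of the 12 single-library fits, adjusted p up to 0.2 without uninjured male library 3. Aspn was at 104 CPM in uninjured male library 3 and at most 25.1 CPM in the other uninjured libraries. It was at 78.3 and 175 CPM in the media libraries of the same description number series, and its fold change without the 4 libraries of that series was -1.53, which passed. Dcn, decorin, was higher, with 81.6 to 191 CPM (median 129) in injured and 31.8 to 107 CPM (median 45.5) in uninjured BALF (1.37 ± 0.25, adjusted p = 0.0012). In the basement membrane Lamb2 fell by 0.57 ± 0.10 and Lamb1 rose by 0.33 ± 0.08; these are alternative β chains of laminin. The call of Lamb1 was lost without uninjured female library 3, adjusted p = 0.058. Nid1, which links laminin to collagen IV, rose by 0.65 ± 0.18, and the matricellular gene Ccdc80 was at 328 to 551 CPM (median 486) in injured and 523 to 1253 CPM (median 995) in uninjured BALF (-0.97 ± 0.18, adjusted p = 0.0011). The call of Nid1 was lost in 7 of the 12 single-library fits, adjusted p up to 0.22 without injured male library 3. Fn1 did not pass (-0.31 ± 0.23, adjusted p = 0.55).

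**Figure D4:**
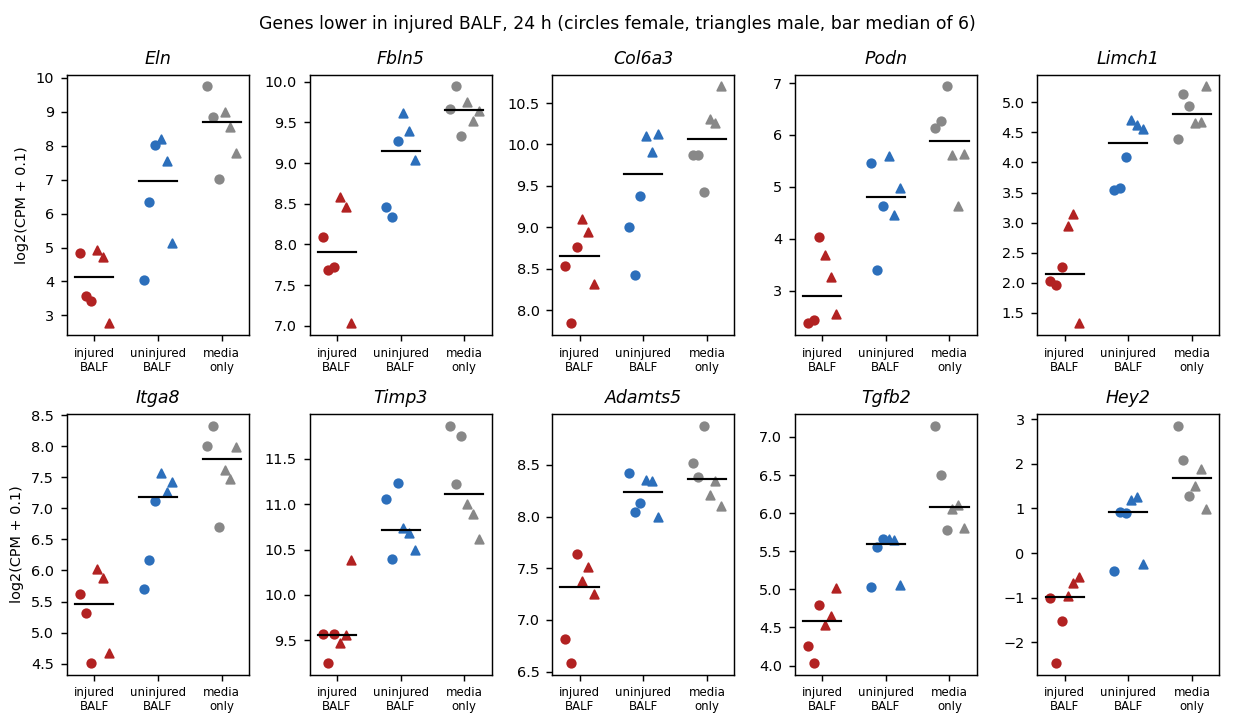
Level of 10 genes that fell, as log2(CPM + 0.1) on each y axis, in the 6 libraries of injured BALF (red), uninjured BALF (blue) and media only (grey); circles are female, triangles male and bars the median. Eln has a median of 18.9 CPM in injured BALF and overlapping groups, while the injured libraries of Timp3, Adamts5 and Limch1 lie below all uninjured ones.

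Contractile and cytoskeletal genes leaned downward: 30 of 32 fold changes were negative, with a median of -0.29. Of these genes 5 fell and none rose, where 2.04% of all genes tested fell. Limch1, an activator of non-muscle myosin II, was at 2.40 to 8.76 CPM (median 4.31) in injured and 11.5 to 25.9 CPM (median 20.1) in uninjured BALF (-1.83 ± 0.34, adjusted p = 0.0015), with no overlap. The focal adhesion gene Vcl was at 513 to 975 CPM (median 860.3) in injured and 668 to 1790 CPM (median 1470) in uninjured BALF (-0.75 ± 0.20), and Tpm2 (-0.51 ± 0.11), Mylk (-0.70 ± 0.20) and Actg2 (-0.81 ± 0.23) were the other called members. The call of Vcl was lost in 5 of the 12 single-library fits, adjusted p up to 0.11 without uninjured female library 3. Those of Mylk and Actg2 were lost in 9 and 10 of them. Acta2, smooth muscle α-actin, did not pass, at 3228 to 5372 CPM (median 4712) in injured and 3130 to 8454 CPM (median 6820) in uninjured BALF (-0.49 ± 0.18, adjusted p = 0.12). This count depended on single libraries: 13 members fell without uninjured female library 1, 11 without both libraries that stand apart, 2 or 3 in each of 8 other single-library fits, lowest without injured male library 1 or 3, uninjured female library 3 or uninjured male library 2, and none with numbers 1 and 2 summed. Of 13 tested pericyte markers 3 fell and none rose. Mcam, the adhesion molecule CD146, was at 30.9 to 78.8 CPM (median 59.1) in injured and 50.8 to 187 CPM (median 144) in uninjured BALF (-1.19 ± 0.32). The call of Mcam was lost in 6 of the 12 single-library fits, adjusted p up to 0.13 without uninjured female library 3. Cd248, endosialin, was at 145 to 288 CPM (median 182) in injured and 261 to 527 CPM (median 411) in uninjured BALF (-1.04 ± 0.21, adjusted p = 0.0029), and the transcription factor gene Ebf1 fell by 0.55 ± 0.15. The call of Ebf1 was lost in 8 of the 12 single-library fits, adjusted p up to 0.12 without injured male library 3. Itga8, an integrin subunit of mural cells and myofibroblasts, was at 22.8 to 64.6 CPM (median 44.3) in injured and 52.2 to 189 CPM (median 146) in uninjured BALF (-1.51 ± 0.39, adjusted p = 0.022). The call of Itga8 was lost without injured male library 3, uninjured female library 3 or uninjured male library 1, adjusted p up to 0.1.

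Growth factor genes that fell came from several families. Of 31 TGF-β pathway genes 3 fell and none rose, where 2.04% of all genes tested fell. Itga8 was the first of the 3. Tgfb2 was at 16.3 to 32.4 CPM (median 24.0) in injured and 32.5 to 50.7 CPM (median 48.4) in uninjured BALF (-0.88 ± 0.20, adjusted p = 0.0068). Tgfb3 was at 87.2 to 139 CPM (median 118) in injured and 106 to 306 CPM (median 259) in uninjured BALF (-1.03 ± 0.23, adjusted p = 0.008). In this list 5 members fell without injured female library 3. Hey2, a transcriptional repressor induced by Notch, was at 0.0816 to 0.591 CPM (median 0.405) in injured and 0.660 to 2.29 CPM (median 1.78) in uninjured BALF (-2.13 ± 0.40, adjusted p = 0.0013), and the related Heyl fell by 2.69 ± 0.66. The call of Heyl was lost without uninjured female library 3, adjusted p = 0.13. They are 2 of the 3 called falls among 32 lung mesenchyme transcription factors; Twist2 rose by 0.79 ± 0.20. The call of Twist2 was lost without injured male library 1, uninjured female library 3 or uninjured male library 1, adjusted p up to 0.075. Among 30 genes of epithelial repair and Wnt signalling 5 fell and 1 rose, beside 2.04% and 2.38% of all genes tested. Fgf18 was at 0.499 to 1.15 CPM (median 0.906) in injured and 1.23 to 3.02 CPM (median 2.25) in uninjured BALF (-1.33 ± 0.27, adjusted p = 0.0028), and Bmp4 (-0.97 ± 0.27), Igf1 (-0.84 ± 0.24), Wnt4 (-1.70 ± 0.47) and the Wnt inhibitor Nkd1 (-0.86 ± 0.23) were the other members that fell. In this list 1 member fell without injured female library 2 or uninjured female library 3, male library 1 or male library 2. Of the 12 single-library fits the call was lost in 8 for Bmp4, 9 for Igf1, 9 for Wnt4 and 6 for Nkd1. Fgf7, keratinocyte growth factor, which stromal cells supply to alveolar epithelium, was at 219 to 310.3 CPM (median 276) in injured and 134 to 248 CPM (median 164) in uninjured BALF (0.61 ± 0.14, adjusted p = 0.011). The call of Fgf7 was lost without uninjured female library 3, adjusted p = 0.057. In the PDGF, VEGF and angiopoietin group Vegfc, the lymphatic growth factor, rose by 1.05 ± 0.20, and Vegfd (-1.10 ± 0.31), Angpt2 (-0.84 ± 0.22) and the co-receptor gene Nrp1 (-0.55 ± 0.12) fell. In this list 1 member fell without injured female library 2 or male library 3, or uninjured female library 3, male library 1 or male library 2. The Vegfd call was lost in 9 and the Angpt2 call in 5 of the 12 single-library fits. Pdgfrb did not pass (-0.35 ± 0.16, adjusted p = 0.25).

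By size alone, the 15 largest rises among genes with at least 4 CPM in the higher group also held Trdc, annotated as a T cell receptor δ constant gene although Cd3e was at 0 in these libraries, at 2.27 to 12.6 CPM (median 3.31) in injured and 0.181 to 2.47 CPM (median 0.261) in uninjured BALF (3.25 ± 0.56, adjusted p = 0.00064). All 15 kept their call in each of the 12 single-library fits and without both libraries that stand apart, and 11 with numbers 1 and 2 summed. The 15 largest falls also held Elobl, at 0.139 to 1.02 CPM (median 0.351) in injured and 1.02 to 6.70 CPM (median 4.64) in uninjured BALF (-3.21 ± 0.80), and the microtubule-associated protein gene Map2, at 2.24 to 5.47 CPM (median 3.47) in injured and 3.18 to 30.8 CPM (median 11.6) in uninjured BALF (-1.97 ± 0.41, adjusted p = 0.0034). The call of Elobl was lost without injured male library 3 or uninjured female library 3, adjusted p up to 0.067. Cmklr1, the receptor for chemerin (-1.90 ± 0.41), Itgbl1 (-1.66 ± 0.40), Tmtc1 (-1.81 ± 0.45) and Ly6c1 (-1.48 ± 0.43) were others. The call of Itgbl1 was lost without uninjured female library 3, adjusted p = 0.09. The call of Tmtc1 was lost without injured female library 2, injured male library 3 or uninjured female library 3, adjusted p up to 0.079. The call of Ly6c1 was lost in 10 of the 12 single-library fits, adjusted p up to 0.2 without uninjured female library 1. Of the 15 falls 6 kept their call in all single-library fits, 13 without both libraries that stand apart and 1, Podn, with numbers 1 and 2 summed.

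Several lists showed few or no calls. Interferon-stimulated genes had 27 of 28 fold changes above 0 and a median of 0.74, but 2 called, Gbp3 (1.76 ± 0.50) and Ifi47 (0.58 ± 0.16), each lost in 8 of the 12 single-library fits; 5 rose without uninjured female library 1. Of the 28, 14 had an unadjusted p under 0.05 and DESeq2 called 5. Of 19 genes of MHC class I and the immunoproteasome 2 rose, H2-T22 (0.61 ± 0.11) and H2-Q4 (1.03 ± 0.28), members of a family with near-identical copies. The call of H2-Q4 was lost in 7 of the 12 single-library fits, adjusted p up to 0.088 without injured male library 1. None of 30 genes of DNA replication (9 with an unadjusted p under 0.05, 1 called by DESeq2) and none of 30 of mitosis (0 with an unadjusted p under 0.05, 0 called by DESeq2) passed in edgeR. Most leaned upward all the same. Fold changes were positive for 29 of the 30 replication genes, with a median of 0.29. For mitosis 28 of the 30 were positive, with a median of 0.11. Without uninjured female library 2, 3 replication genes rose. Mki67 was at 200.1 to 292 CPM (median 235) in injured and 172 to 291 CPM (median 209) in uninjured BALF. None of 28 oxidative phosphorylation genes passed (1 with an unadjusted p under 0.05, 0 called by DESeq2), with a list median within 0.01 of 0, and none of 23 chaperones of the endoplasmic reticulum (3 with an unadjusted p under 0.05, 1 called by DESeq2). The ATF4 group, which answers amino acid shortage, had 3 falls and no rise among 24: Atf5 (-0.61 ± 0.11), Slc7a5 (-0.61 ± 0.13) and Ddit3 (-0.60 ± 0.15), with 6 falls without injured female library 3. Trp53 itself rose by 0.47 ± 0.09, with 125 to 170.0 CPM (median 147) in injured and 92.3 to 140.0 CPM (median 102) in uninjured BALF, as did Plk2 (0.86 ± 0.22) and Fas, the 3 risers of 21 genes in that list, while its target Cdkn1a did not pass (0.04 ± 0.08). Hif1a, which encodes the oxygen-regulated subunit of HIF-1, rose by 0.53 ± 0.11 and its hydroxylase gene Egln3 by 0.80 ± 0.20, the 2 risers of 28 genes of glycolysis and hypoxia, and Ldha did not pass (0.11 ± 0.14). The glucocorticoid receptor gene Nr3c1 fell to 95.5 to 119 CPM (median 104) in injured BALF, against 121 to 166 CPM (median 141) in uninjured BALF (-0.41 ± 0.10, adjusted p = 0.01), and its target Tsc22d3 fell by 0.53 ± 0.13. Lcn2 was the 1 riser of the 15 genes of that list. The call of Nr3c1 was lost without uninjured female library 3, adjusted p = 0.055. The call of Tsc22d3 was lost in 5 of the 12 single-library fits, adjusted p up to 0.093 without uninjured female library 3. The same fits lost the call of Ddit3 in 7 cases, of Plk2 in 3 and of Egln3 in 4.

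In the remaining lists called members were few, where 2.38% of all genes tested rose and 2.04% fell. A single call therefore says little about its list. Of 18 complement genes 1 fell, Masp1 (-0.99 ± 0.27), of 17 clock genes 1 fell, Per2 (-0.57 ± 0.17), and of 26 genes of AP-1, EGR and MAPK feedback 2 rose, Ier3 (1.22 ± 0.27) and the phosphatase gene Dusp16 (0.47 ± 0.09). Of 22 YAP and TEAD targets Tead2 rose by 0.36 ± 0.09 and Amotl2 fell by 0.29 ± 0.08, and of 16 cytosolic heat shock genes Hspa4l rose by 0.58 ± 0.17. All 26 genes of ribosome biogenesis had a positive fold change, with a median of 0.26; 2 rose, Odc1 and Rrs1 (0.35 ± 0.09), against 9 without injured female library 3 and 10 without uninjured female library 2. All 24 constitutive proteasome genes also had a positive fold change, with a median of 0.14 and 1 call, Psma6 (0.42 ± 0.09). None of 17 NR4A and cyclic AMP genes (3 with an unadjusted p under 0.05, 0 called by DESeq2) and none of 13 retinoic acid genes (2 with an unadjusted p under 0.05, 0 called by DESeq2) passed in edgeR. Calls in these lists were lost in up to 9 of the 12 single-library fits: 5 for Masp1, 9 for Per2, 1 for Tead2, 8 for Amotl2, 9 for Hspa4l and 6 for Rrs1.

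Values in media place both fluids beside cells that received none. Injured BALF against media gave 3774 called genes (23.7%), 1834 (11.5%) higher and 1940 (12.2%) lower. Uninjured BALF against media gave 138 (0.868%), 82 (0.516%) higher and 56 (0.352%) lower. Both comparisons use the same 6 media libraries, and each shares a fluid with the main one. Media female library 1 had 3.87% mitochondrial counts, against 1.4 to 1.82% in the other media libraries of 24 h. Its 10 most abundant genes held 12.61% of its counts, against 8.4 to 10.22%. The female media libraries of 24 h differed by a coefficient of variation of 26.1 to 40.6%. Neither comparison was repeated without media female library 1. Genes that rose between injured and uninjured BALF had a median log2 fold change of 1.28 for injured BALF over media and 0.31 for uninjured BALF over media. For the genes that fell these medians were -0.92 and -0.29. Both sets were chosen for a difference between the fluids in these same libraries. The gap between the medians of each set follows from that choice and is not a separate result. Angptl4 was higher in both fluids than in media, by 3.87 in injured BALF (adjusted p = 5e-13) and 1.96 in uninjured BALF (adjusted p = 1.2e-06). For Ccl2 the change over media was 4.57 in injured BALF (adjusted p = 1.1e-08) and 1.51 in uninjured BALF (adjusted p = 0.043). Nos2 had 2 counts in all 6 media libraries together, so no fold change over media is given. For Eln the change over media was -4.47 in injured BALF (adjusted p = 8.9e-05) and -1.55 in uninjured BALF (adjusted p = 0.37), and for Fbln5 it was -1.65 in injured BALF (adjusted p = 7.9e-05) and -0.59 in uninjured BALF (adjusted p = 0.41).

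The effect at 24 h was then set against the same comparison at 6 h, which uses 12 other libraries. Of the 379 genes that rose at 24 h, 159 had also risen at 6 h, where 3.43% of all genes were called (1.97% risen, 1.46% fallen). Of the 324 that fell, 39 had also fallen at 6 h and 1 had risen. Of the 15 largest rises 13 were called at 6 h, and of the 15 largest falls none. The genes that fell at 24 h had a median log2 fold change of -0.65 at 24 h and -0.19 at 6 h. For those that rose the medians were 0.91 and 0.49. Both sets were chosen by their values at 24 h, which favours larger changes at that time. These counts and medians therefore do not show that the effect differed between the times. The difference of the effects itself, 24 h minus 6 h, passed for 38 genes (0.239%), 24 with a higher and 14 with a lower effect at 24 h, and for 1236 (7.77%) at an unadjusted p under 0.05. Icam1 is among them: injured BALF raised it by 0.98 ± 0.19 at 24 h and by 2.73 ± 0.20 at 6 h, a difference of -1.76 ± 0.27 (adjusted p = 0.0025). Nrg1, a ligand of ERBB receptors, had a change of -0.43 ± 0.14 at 24 h and of 0.99 ± 0.14 at 6 h (difference -1.42 ± 0.20, adjusted p = 0.0014). Its change at 24 h alone was not called. Crem, a repressor of cyclic AMP targets, had 0.28 ± 0.16 at 24 h and -1.20 ± 0.16 at 6 h, and Dgat1, which makes triglycerides, 0.01 ± 0.15 at 24 h and -1.27 ± 0.15 at 6 h. Saa3 had 5.08 ± 0.56 at 24 h and 2.64 ± 0.52 at 6 h, a difference that did not pass (adjusted p = 0.19), and Eln had -2.92 ± 0.72 at 24 h and -0.44 ± 0.66 at 6 h (adjusted p of the difference 0.41). The number of differing genes depended on single libraries: it was 7 without uninjured male library 1, 11 without uninjured female library 3, 17 without injured female library 2 or injured male library 3, 22 without uninjured male library 3, 25 without uninjured male library 2 and 59 without uninjured female library 1, and none with numbers 1 and 2 summed (edgeR, unadjusted p under 0.05 for 796 genes).

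**Figure D5:**
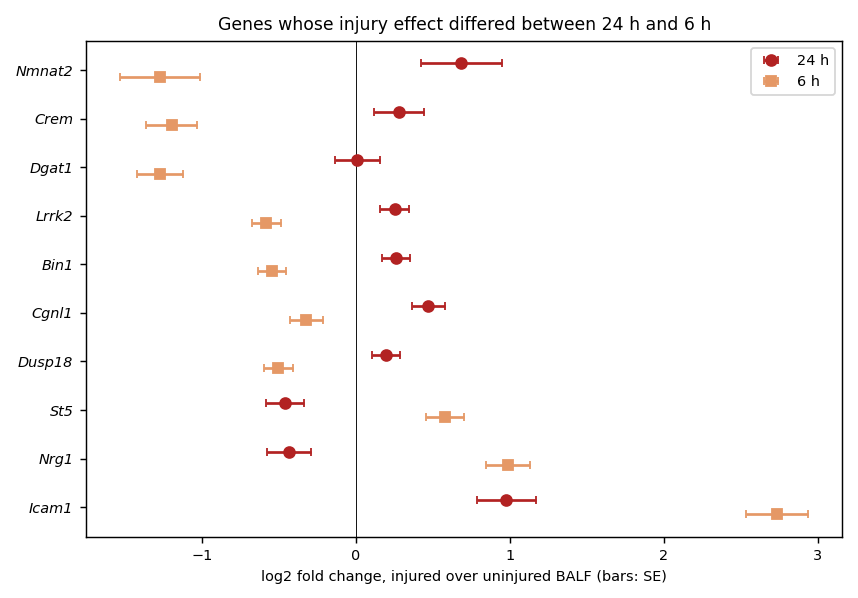
Log2 fold change of injured over uninjured BALF (x axis, bars: SE) at 24 h (red circles) and 6 h (orange squares) for the 10 genes of lowest p for the difference between the 2 times. Icam1 was higher in injured BALF at both times, by 0.98 at 24 h and 2.73 at 6 h. The estimates of the other 9 genes have opposite signs at the 2 times, which need not be a reversal. At 24 h those of Dgat1 (0.009), Crem (0.283) and Nrg1 (-0.434) were not called. Calls of the remaining genes at 24 h are not given here.

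Male and female cells were compared last. Within male cells 221 genes (1.39%) passed and within female cells 13 (0.0818%), but the difference between the sexes passed for none (0.0% of genes; edgeR, 150 genes or 0.943% at an unadjusted p under 0.05; DESeq2 also 0). Of the 379 risen genes 327 had the larger fold change in males, with medians of 1.05 in males and 0.73 in females. Of the 324 fallen genes 230 had the larger change in males, with medians of -0.71 in males and -0.58 in females. The share over all genes tested was not counted, so these counts cannot be set against it. Saa3 was among the genes of lowest p for this difference, with 7.11 in males and 3.04 in females (difference 4.07 ± 1.01, unadjusted p = 0.00038, adjusted p = 1), and for Nos2 the values were 9.29 in males and 5.04 in females (adjusted p = 1). Uninjured female libraries 1 and 2, in which these genes were high, enter the female values only.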

How the data were processed

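The deposited table held whole-number counts per gene for 36 libraries of a stranded mRNA kit, made by the authors; the submitters' processing notes name STAR 2.5.2b, RSEM 1.2.31, DESeq2 and GRCm38 without saying what each did, so the counts may be rounded estimates. Gene names came from GENCODE M21 (48435 of 48795 identifiers matched; unmatched ones held at most 0.0108% of a library).

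Groups were treatment, sex and time as labelled. All 36 libraries entered 1 edgeR 4.0.16 quasi-likelihood fit in R 4.3.3 (12 groups, TMM, filterByExpr, 15901 genes, 24 residual degrees of freedom). Effects were averaged over both sexes, tested with Benjamini-Hochberg adjustment over all genes tested and called at an adjusted p under 0.05; SE is the fold change divided by the root of F. Fold changes used a prior count of 0.125. Totals of 20910980 to 35991683 counts set the precision of low genes; a level of 0 allows up to 3 counts. Levels are CPM on TMM-scaled totals. The pipeline was tested on simulated data. Alternatives were DESeq2 1.42.0, other scalings and filters, fewer libraries, a replicate block, and each library left out.

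Members and lists were chosen with earlier results of these data known. Named were the 15 highest and 15 lowest called fold changes (at least 4 CPM in the higher group, same direction in both sexes), up to 8 called and 4 uncalled members of each of 47 lists, markers, paralogs, and the 10 genes of lowest p of each difference that were called; 3 where none was. Of the genes this allows, those that show each group were written up. Promoters came from RefSeq for 11132 tested genes.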

Additional observations from a re-analysis of the deposited data

Results flagged for a closer look

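In 56 of 394 groups of 6 libraries the highest or lowest value lay apart from the others by Dixon's criterion. Chance meets it in about 1 in 20 independent groups of normally distributed values. The groups here reuse the same 12 libraries, so their number cannot be set against that rate. Of genes with such a value, uninjured female library 2 was the highest of its group for Bdkrb2 1.57, Ccl2 421, Ccl20 53.9, Csf2 0.674, Csf3 2.52, Cxcl16 27.7, Cxcl2 2.74, Cxcl3 4.04, Fas 40.8, Il1a 1.8, Il6 106, Lif 112, Lrig1 157, Mmp10 52.2, Mmp13 72.4, Mmp9 3.37, Odc1 355, Plin2 196, Plk2 456, Prdx6 473, Saa3 46.5, Serpinb2 26.9, Tnfaip3 44.5 and Trp53 140.0 CPM. The highest library of its group was injured female library 3 for Camp 1.66, Ccl7 745, Cd14 11, Cd47 168, Cxcl1 358, Dgat1 26.2, Mt2 347, Nos2 271, Notch3 45.4, Ogn 64.1, Reck 38.9 and Tbxa2r 15 CPM. Injured male library 3 was highest for Slpi 12.4, Timp3 1340, Tnip3 1.94, Wnt4 1.15, epithelial markers 72.4 and mesothelial markers 173 CPM. Uninjured female library 1 was highest for Bcl3 30.0, Cd47 133, Egln3 63.1, Il1r1 159 and Mt2 214 CPM. Uninjured male library 3 was highest for Aspn 104, Dcn 107, Masp1 281 and Mmp3 192 CPM. Injured female library 1 was highest for Adam17 90.7 CPM. Injured female library 2 was lowest for Ldha 1110 CPM. Injured male library 2 was highest for Ppbp 1.19 CPM. Injured female library 3 was lowest for Slc7a1 78.7 CPM. Uninjured female library 1 was lowest for Tpm2 527 CPM. No explanation was tested for any of these values.

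The effect of injured over uninjured BALF differed between 24 h and 6 h in an edgeR interaction test for the 10 genes named by that rule. The difference, 24 h minus 6 h on the log2 scale, was -1.42 for Nrg1, -1.76 for Icam1, 1.48 for Crem, 0.81 for Bin1, 0.84 for Lrrk2, 1.28 for Dgat1, -1.04 for St5, 0.70 for Dusp18, 1.95 for Nmnat2 and 0.79 for Cgnl1.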

How the results depend on the processing

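The injured and uninjured BALF comparison at 24 h gave 703 called genes. It gave 429 with the 18 libraries of 24 h alone, 174 with numbers 1 and 2 summed, 296 at an adjusted p under 0.01 and 255 with a 2-fold minimum; fewer libraries or a stricter threshold enter these by construction. Leaving out 1 library gave 331 to 967 and leaving out 1 number from every group 113, 130 and 847. It stayed between 597 and 962 with other scalings (upper-quartile 349 up and 374 down), DESeq2, other filters, sex ignored and the 12 libraries alone. The difference between 24 h and 6 h gave 38 called genes, 107 with DESeq2, 0 with numbers 1 and 2 summed (edgeR; 796 at an unadjusted p under 0.05), 7 at an adjusted p under 0.01, 7 to 59 without 1 library and 0 to 233 without 1 number of every group. The cause was not tested. The sex difference gave 0 to 2, with 2 without number 3 of every group. Same-numbered injured and uninjured libraries did not regularly deviate together (correlations of -0.704, 0.714 and -0.536 in females and 0.154, 0.107 and -0.096 in males), so the numbers were not taken as pairs. Some female libraries of unlike numbers did, at 0.873 for injured 3 with uninjured 1 and 0.598 for injured 1 with uninjured 3. The other female pairs of unlike numbers gave -0.744 to 0.452, and the male ones -0.298 to 0.128. A pairing across numbers was not tested. Deviations within a group of 3 libraries sum to 0, so these correlations depend on one another. They cannot decide whether the numbers are pairs. With the replicate block 1079 genes were called at 24 h (376 with the 12 libraries alone), 71 for the time difference and 0 for the sex difference. Of 176 named called genes 176 kept their call with DESeq2, 160 without both libraries that stand apart (chosen after seeing the data), 154 without the 4 libraries of the separate description number series and 64 with numbers 1 and 2 summed, and none changed sign in any alternative. Comparisons with media were not recomputed. Depth limits genes under about 1 CPM most.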
